A study of Homo sapiens with 6 samples.

Results

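NF-kappaB is a family of dimeric transcription factors, and the genes described here encode 4 of its subunits (NFKB1, NFKB2, RELA and RELB) and 6 proteins that its activity induces or that restrain it (NFKBIA, NFKBIZ, TNFAIP3, BIRC3, TRAF1 and TNFAIP2). The 10 genes were chosen by symbol, by matching the Ensembl identifiers of the files, without their versions, to GENCODE release 29. All 10 were found among the 58243 listed identifiers, and all passed the filter for testing, an average over the 6 libraries of 1 FPKM or more, which left 13437 genes. The libraries come from CAL27, an established line of squamous cell carcinoma of the tongue, and 3 were made from cells kept for 48 h in 30 mM metformin, a biguanide drug for diabetes, and 3 from cells kept as long in the phosphate-buffered saline (PBS) vehicle. Both groups grew in the same serum-containing medium. A single line and a single dose were studied, and no inflammatory stimulus is named in the labels. The comparison bears on how metformin changes transcripts in head and neck squamous carcinoma cells, in a series made to study the drug's effect on chemosensitivity.

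In resting cells the dimers are held in the cytoplasm by inhibitors of the IkappaB family. In the canonical pathway, receptors of tumour necrosis factor and interleukin 1 activate a kinase complex that marks IkappaB alpha, the product of NFKBIA, for degradation, which frees dimers of RELA and the NFKB1 product p50. In the non-canonical pathway, the precursor made by NFKB2 is processed to p52, which pairs with RELB. Several genes induced by the dimers, among them NFKBIA and TNFAIP3, encode brakes on the pathway and so form feedback loops. Squamous carcinoma cells are known for NF-kappaB activity and for secreting the chemokines it induces.

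The libraries were similar within groups. Their summed FPKM (fragments per kilobase of transcript, scaled by the authors to the mapped fragments) lay between 200842 and 208899. The steps between low values gave an estimated 7960000 to 8580000 fragments in metformin libraries and 7800000 to 8840000 in PBS libraries. By that estimate 1 FPKM stood for about 7.8 to 8.84 fragments per kilobase. The estimate is rough, since only a limited range of depths was searched. At the chosen depths 18.8% to 21.4% of the low values were whole numbers of fragments within 0.02. Pearson correlations of log2 values across tested genes were 0.974 to 0.979 between libraries of a group and 0.881 to 0.888 between groups. All 10 squamous epithelial markers examined reached 1 FPKM, with summed levels of 796 to 821 FPKM in metformin libraries and 1360 to 1440 FPKM in PBS libraries. Of these markers 3 rose (DSG3, EPCAM and CDH1), 6 fell and SFN did not pass, by the test described below. That was 90.0% called, beside 56.2% of all tested genes, 31.0% higher and 25.2% lower. Most of the difference in the sum came from the keratin genes KRT5 and KRT14. KRT5 averaged 52.5 FPKM with metformin and 355 FPKM with PBS, and KRT14 12.9 FPKM with metformin and 246 FPKM with PBS. CDH1 shares exon bases with AC099314.1 on the other strand. Leukocyte markers summed to 5.52 to 7.48 FPKM with metformin and 6.13 to 7.29 FPKM with PBS over 8 genes, with CD79A listed at 0 in every library. A listed 0 need not mean low expression in these files, since all 37 genes of mitochondrial DNA, which every cell uses, were also listed at 0 throughout. Fibroblast markers summed to at most 2.74 FPKM over 7 genes and endothelial markers to at most 7.06 FPKM over 5 genes, most of it from CDH5. Whether the 3 libraries of a group were grown as separate cultures is not stated, and the p-values therefore reflect only library-to-library spread, possibly of technical origin.

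A sequence that NF-kappaB is known to bind, the kappaB motif, lies close to the start of several of these genes. RefSeq promoter windows (GRCh38.p14), each of 300 bases from 250 before the start to 50 from it, were matched by symbol for 9 of the 10 genes, all but RELB, in 16 windows, since some genes have several starts. A strict form of the motif, GGG followed by any 2 bases and then TTTCC, was searched on both strands, and 7 of the 16 windows, in 6 genes, held it, against 1.91% of all 35116 promoter windows. The looser 10-letter kappaB consensus was held by 8 windows of the same 6 genes, against 11.27% of all windows. All 8 matches of the strict form were also matches of the consensus, so the searches overlap. A match is a description of the letters and not a measured binding site, and several of these genes are known as NF-kappaB targets. The windows of 4 genes are shown because they differ in what their genes did: NFKBIA and NFKB1 fell with metformin, NFKB2 rose, and TNFAIP3 passed the test in neither direction. Capitals mark matches of either form, read on either strand, and each window reads 5′ to 3′ along its gene.
NFKBIA (lower with metformin, chr14:35404700-35404999, minus strand): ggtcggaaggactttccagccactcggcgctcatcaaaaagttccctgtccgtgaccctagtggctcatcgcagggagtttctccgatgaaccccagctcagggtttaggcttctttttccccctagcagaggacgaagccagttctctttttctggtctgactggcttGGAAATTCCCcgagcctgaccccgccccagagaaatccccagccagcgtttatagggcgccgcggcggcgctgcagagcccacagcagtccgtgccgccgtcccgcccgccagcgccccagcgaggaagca
NFKB1 (lower with metformin, first start, chr4:102501109-102501408, plus strand): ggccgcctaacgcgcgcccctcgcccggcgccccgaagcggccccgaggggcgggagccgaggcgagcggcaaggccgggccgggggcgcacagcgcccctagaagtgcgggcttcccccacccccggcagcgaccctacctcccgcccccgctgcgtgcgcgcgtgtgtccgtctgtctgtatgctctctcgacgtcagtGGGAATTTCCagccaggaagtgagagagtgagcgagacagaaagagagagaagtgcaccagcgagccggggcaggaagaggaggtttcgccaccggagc
NFKB2 (higher with metformin, second start, chr10:102394328-102394627, plus strand): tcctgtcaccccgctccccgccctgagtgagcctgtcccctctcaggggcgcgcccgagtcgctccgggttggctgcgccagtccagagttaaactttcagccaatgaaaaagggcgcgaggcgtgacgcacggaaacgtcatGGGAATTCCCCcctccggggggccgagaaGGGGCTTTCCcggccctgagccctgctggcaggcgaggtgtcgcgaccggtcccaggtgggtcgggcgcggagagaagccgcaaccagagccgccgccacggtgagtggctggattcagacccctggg
TNFAIP3 (no call, chr6:137867009-137867308, plus strand): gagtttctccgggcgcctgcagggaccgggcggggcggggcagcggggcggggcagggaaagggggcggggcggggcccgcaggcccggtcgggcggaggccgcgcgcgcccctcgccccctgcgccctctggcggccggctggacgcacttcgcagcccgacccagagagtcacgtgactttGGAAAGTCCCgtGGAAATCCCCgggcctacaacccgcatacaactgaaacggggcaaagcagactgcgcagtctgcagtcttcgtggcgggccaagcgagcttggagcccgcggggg

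In NFKBIA the match GGAAATTCCC lay from base -81 to -72 relative to the start, and in NFKB1 the match GGGAATTTCC lay from -49 to -40. TNFAIP3 held a pair of matches, GGAAAGTCCC from -67 to -58 and GGAAATCCCC from -55 to -46. Matches of the strict form were also present in the first window of NFKBIZ (GGGAATTTCC), the third of NFKB2 (GGGACTTTCC) and the window of BIRC3 (GGAAATCCCC). The windows of RELA, TRAF1 and TNFAIP2 held neither motif, nor did the second window of NFKB1 and the first of NFKB2. This says only that these letters are not in these stretches. TRAF1 and TNFAIP2 had the largest changes of the 10 genes, in opposite directions, and a link between motifs and changes was not tested.

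**Figure D1:**
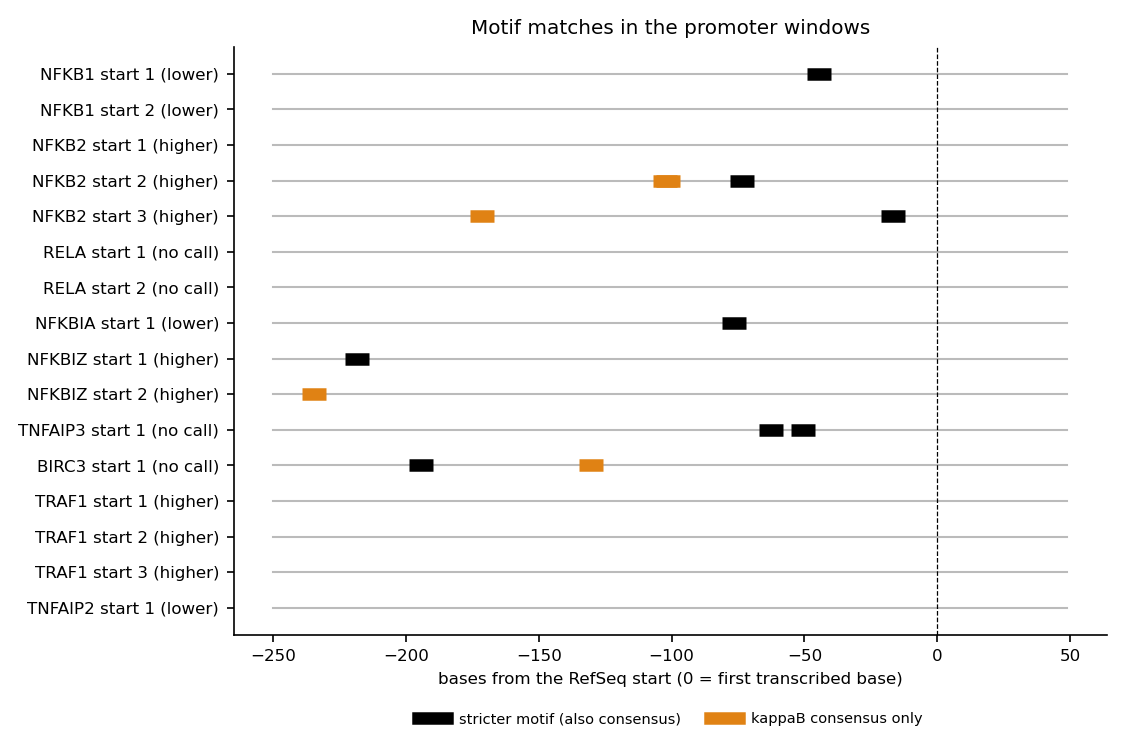
Positions of motif matches in the 16 promoter windows, one row per RefSeq start, with distance from the start in bases on the x axis. Black bars are matches of the stricter motif, all of them also consensus matches, and orange bars match the consensus alone. The words in brackets give the direction of each gene with metformin, and matches occur in genes of all 3 kinds.

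With metformin, 4 of the 10 genes rose, 3 fell and 3 did not pass the test (limma on log2(FPKM + 1), two-sided, Benjamini-Hochberg adjustment over all tested genes, threshold 0.05). TRAF1, RELB, NFKB2 and NFKBIZ were the genes that rose, and TNFAIP2, NFKBIA and NFKB1 those that fell. Changes were common in this comparison: 56.2% of all tested genes passed, 31.0% as higher and 25.2% as lower, so the share of these genes that passed, 70.0%, was not far from that of genes at large. The median log2 change of the 10 genes was 0.15, beside 0.06 for all tested genes. Metformin and PBS libraries occupied separate ranges in 8 of the 10 genes, 5 higher and 3 lower with metformin, against 64.4% of tested genes in all, 35.7% higher and 28.7% lower. In bulk RNA, fewer cells with a transcript and less of it per cell cannot be told apart.

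**Figure D2:**
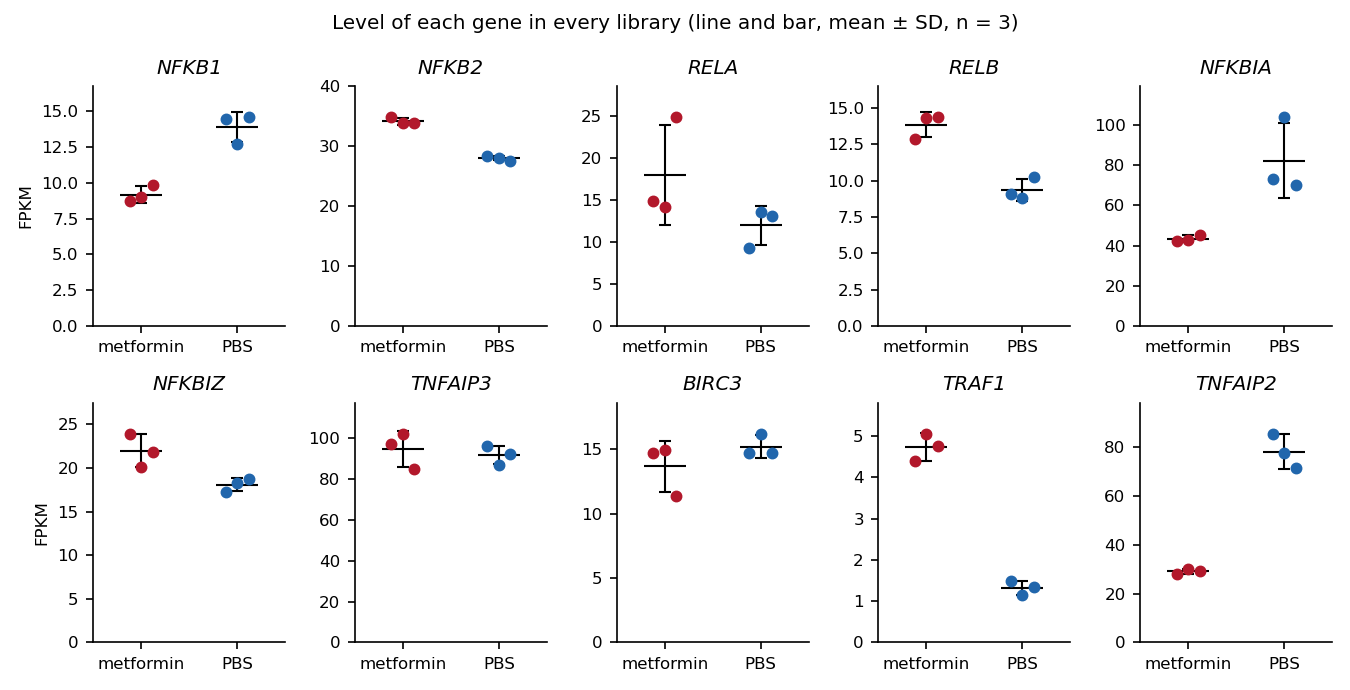
FPKM of each gene in every library on axes that start at 0, with metformin on the left in red and PBS on the right in blue. Points are libraries, and lines with bars are the mean ± SD of 3. TNFAIP2, NFKBIA and NFKB1 lie lower with metformin, TRAF1, RELB, NFKB2 and NFKBIZ higher, and RELA has 1 high metformin library.

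Of the subunit genes, NFKB1 (ENSG00000109320.11, chromosome 4, 102501329 to 102617302 in GRCh38), which encodes the p50 precursor, had 8.70, 8.99 and 9.82 FPKM in metformin libraries, against 14.4, 12.7 and 14.6 FPKM in PBS libraries. Every metformin library was below every PBS library. The mean was 9.17 ± 0.578 FPKM with metformin and 13.9 ± 1.04 FPKM with PBS (SD, n = 3 each), a log2 difference of -0.55 ± 0.08 (SE, limma adjusted p = 0.0011). NFKB2 (ENSG00000077150.18, chromosome 10, 102394110 to 102402529), whose product is the p52 precursor and itself an inhibitor of RELB, had 34.9, 33.9 and 33.8 FPKM with metformin, against 28.3, 28.1 and 27.6 FPKM with PBS. The groups lay apart and the libraries of each were close, with coefficients of variation of 1.68% with metformin and 1.3% with PBS. The rise was small, 1.22-fold, and log2 values differed by 0.28 ± 0.05 (SE, limma adjusted p = 0.00206).

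RELB (ENSG00000104856.13, chromosome 19, 45001430 to 45038198), the partner of p52, had 12.8, 14.3 and 14.4 FPKM with metformin, against 9.05, 8.80 and 10.2 FPKM with PBS. The groups did not overlap, with a rise of 1.48-fold, and log2 values differed by 0.52 ± 0.08 (SE, limma adjusted p = 0.0015). RELA (ENSG00000173039.18, chromosome 11, 65653596 to 65663094), the main activating subunit of the canonical pathway, had 14.9, 14.2 and 24.9 FPKM with metformin, against 9.35, 13.6 and 13.1 FPKM with PBS. Every metformin library was above every PBS library, by a narrow margin. The third metformin library stood well above the others of its group, and the first PBS library below the others. The log2 change of RELA was nearly that of RELB, 0.52, but its SE was 0.23 and it did not pass (limma adjusted p = 0.0973), with a 95% interval of -0.03 to 1.07. Without the third metformin library it was 0.27 (limma adjusted p = 0.208). REL, the remaining subunit gene, had 1.84, 1.84 and 3.15 FPKM with metformin, against 3.78, 1.98 and 4.11 FPKM with PBS. Its groups overlapped and it did not pass (limma adjusted p = 0.236), but without the second PBS library its log2 change was -0.62 and passed (limma adjusted p = 0.0411). REL shares exon bases with AC010733.2 on its own strand, so its values are uncertain.

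The inhibitor gene NFKBIA (ENSG00000100906.10, chromosome 14, 35401511 to 35404749) had 42.3, 42.6 and 45.4 FPKM with metformin, against 73.1, 104 and 70.1 FPKM with PBS. The metformin libraries agreed closely, and the second PBS library was far above the other two. The mean was 43.4 ± 1.70 FPKM with metformin and 82.4 ± 18.8 FPKM with PBS (SD, n = 3 each), 1.90-fold lower with metformin, and log2 values differed by -0.89 ± 0.15 (SE, limma adjusted p = 0.00214). Without the second PBS library the change was -0.71 and still passed (limma adjusted p = 0.000393). NFKBIZ (ENSG00000144802.11, chromosome 3, 101827991 to 101861022) encodes IkappaB zeta, a nuclear member of the family that acts as a co-activator at some target genes. It had 23.9, 20.1 and 21.9 FPKM with metformin, against 17.3, 18.3 and 18.8 FPKM with PBS. The groups were apart by a narrow margin, and log2 values differed by 0.27 ± 0.08 (SE, limma adjusted p = 0.0216). This call was lost without the first metformin library (log2 change 0.21, limma adjusted p = 0.0599), without the third (0.27, adjusted p = 0.0542) and without the first PBS library (0.23, adjusted p = 0.0675). It was also lost with median-of-ratios scaling of the libraries (0.21, adjusted p = 0.0537).

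TNFAIP3 (ENSG00000118503.14, chromosome 6, 137867188 to 137883312) encodes A20, a ubiquitin-editing enzyme that shuts off signalling from tumour necrosis factor receptors. It had 97.1, 102 and 84.8 FPKM with metformin, against 96.0, 87.0 and 92.2 FPKM with PBS, the highest mean of the 10 genes in both groups. The groups overlapped, and the log2 change was 0.04 with a 95% interval of -0.14 to 0.23 (limma adjusted p = 0.672). BIRC3 (ENSG00000023445.13, chromosome 11, 102317450 to 102339403), which encodes the ubiquitin ligase cIAP2, had 14.7, 14.95 and 11.4 FPKM with metformin, against 14.7, 16.2 and 14.7 FPKM with PBS. Its groups overlapped too, with a log2 change of -0.15 and a 95% interval of -0.41 to 0.11 (limma adjusted p = 0.271). Without the third metformin library the log2 change of BIRC3 was -0.0355 (limma adjusted p = 0.711). TNFAIP3 shares 95 exon bases with the antisense gene AL357060.1, which averaged 2.16 FPKM with metformin and 1.11 FPKM with PBS.

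TRAF1 (ENSG00000056558.10, chromosome 9, 120902393 to 120929173) encodes an adaptor that binds TRAF2 and the cIAP proteins at receptors of the tumour necrosis factor family. It had 4.40, 5.06 and 4.77 FPKM with metformin, against 1.48, 1.14 and 1.35 FPKM with PBS. All metformin libraries lay above all PBS libraries, 3.58-fold on the means, and log2 values differed by 1.30 ± 0.09 (SE, limma adjusted p = 5.88e-05). With pseudocounts of 0.1 and 0.01 FPKM in place of 1, which shrink a low gene less, the change was 1.77 and 1.84. TRAF1 had the lowest level of the 10 genes, down to about 8.89 fragments per kilobase by the rough depth estimate. TNFAIP2 (ENSG00000185215.8, chromosome 14, 103123442 to 103137439), named for its induction by tumour necrosis factor, encodes a protein that promotes membrane nanotubes between cells. It had 28.1, 30.1 and 29.4 FPKM with metformin, against 85.5, 77.6 and 71.4 FPKM with PBS. The groups were far apart, 2.68-fold lower with metformin, and log2 values differed by -1.39 ± 0.07 (SE, limma adjusted p = 1.76e-05). Of all tested genes, 4.87% had a larger absolute change than TNFAIP2 and 5.75% a larger one than TRAF1.

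**Figure D3:**
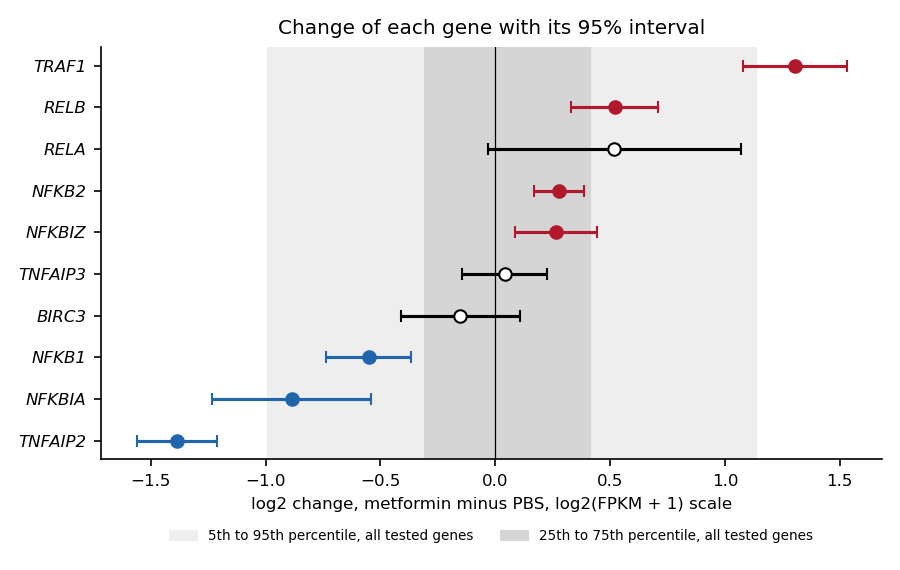
Log2 change of each gene, metformin minus PBS, of log2(FPKM + 1) values, with its 95% interval from limma. Red and blue points passed the test as higher and lower, and open points did not pass. The bands show the middle of the distribution of all tested genes, and TRAF1 and TNFAIP2 lie outside the wider one, which runs from -0.99 to 1.14.

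FPKM divides by transcript length, so levels can be ordered roughly between genes, though the annotation and quantification tool are not given. With metformin the means ran from TNFAIP3 (94.6 FPKM) through NFKBIA (43.4), NFKB2 (34.2), TNFAIP2 (29.2), NFKBIZ (21.98), RELA (18.0), RELB (13.8), BIRC3 (13.7) and NFKB1 (9.17) to TRAF1 (4.74). The library ranges of neighbours overlapped in that order for NFKBIZ and RELA, for RELA and RELB and for RELB and BIRC3. With PBS the order was TNFAIP3 (91.7 FPKM), NFKBIA (82.4), TNFAIP2 (78.2), NFKB2 (28.0), NFKBIZ (18.1), BIRC3 (15.2), NFKB1 (13.9), RELA (12.01), RELB (9.35) and TRAF1 (1.33). There the ranges of TNFAIP3, NFKBIA and TNFAIP2 overlapped from one to the next, as did those of NFKB1, RELA and RELB.

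Because the plain FPKM ratio of a pair of genes within a library does not depend on how libraries are scaled, 6 such ratios were compared. The log2 differences and their tests used a pseudocount of 1, so for low genes they can depend on scaling. NFKB2 stood at 4, 3.77 and 3.45 times NFKB1 in metformin libraries, against 1.96, 2.21 and 1.90 times in PBS libraries. The ratio was higher in every metformin library, by 0.83 on the log2 scale with a pseudocount of 1. NFKBIA stood at 2.84, 3.00 and 1.82 times RELA with metformin, against 7.81, 7.63 and 5.36 times with PBS. That ratio was lower in every metformin library, by a log2 difference of -1.40. BIRC3 stood at 3.34, 2.96 and 2.39 times TRAF1 with metformin, against 9.93, 14.2 and 10.9 times with PBS. It was also lower in every metformin library, by a log2 difference of -1.46. These 3 ratios had an exact two-sided permutation p of 0.1, the smallest that 3 libraries against 3 allow, and 0.2 after Benjamini-Hochberg adjustment over the 6, so none can pass 0.05. RELB over RELA, NFKB2 over RELA and TNFAIP3 over RELA overlapped between groups, with log2 differences of 0.0018, -0.24 and -0.48 (exact permutation p = 1, 0.6 and 0.5). Without the third metformin library, the difference for TNFAIP3 over RELA was -0.15, and without the first PBS library it was -0.29. The third metformin library, where RELA was highest, gave the lowest value of each ratio to RELA.

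**Figure D4:**
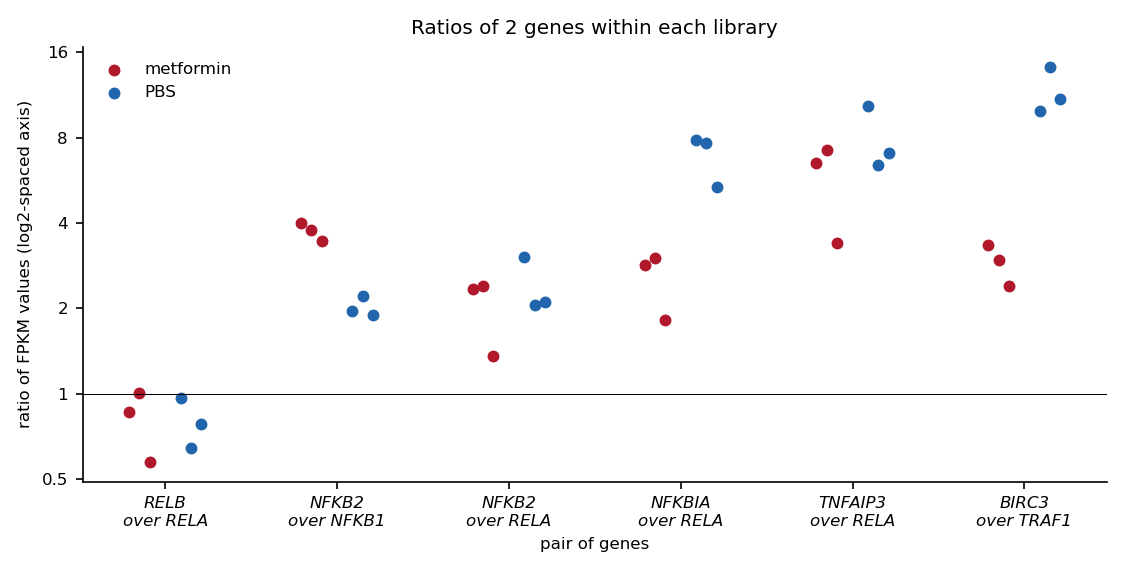
Ratio of the FPKM of a pair of genes within each library, on a log2-spaced axis, with metformin in red left of PBS in blue. Each point is a library. NFKB2 over NFKB1 lies higher with metformin, NFKBIA over RELA and BIRC3 over TRAF1 lower, and the other 3 ratios overlap between groups.

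Other genes of the pathway were counted from lists written from general knowledge of their roles, and unless stated otherwise values are mean ± SD of 3 libraries. Of the 8 other subunit and inhibitor genes, 2 rose and 2 fell (50% called, beside 56.2% of all tested genes), with a median log2 change of -0.16. NFKBIB, which encodes IkappaB beta, averaged 20.3 ± 1.40 FPKM with metformin and 14.7 ± 0.449 FPKM with PBS (limma adjusted p = 0.00156), and shares exon bases with SIRT2 on the other strand. NFKBIL1, an IkappaB-like gene, averaged 9.02 ± 0.838 FPKM with metformin and 7.05 ± 0.749 FPKM with PBS (limma adjusted p = 0.0295). It no longer passed when the first metformin library (adjusted p = 0.0884) or the third PBS library (adjusted p = 0.0754) was left out, and 1 gene of this list was then higher. BCL3, an atypical nuclear IkappaB that binds p50 and p52 dimers, fell to 11.04 ± 0.109 FPKM with metformin, against 14.7 ± 0.792 FPKM with PBS (limma adjusted p = 0.00187). NKRF, a repressor of NF-kappaB targets, fell to 4.08 ± 0.334 FPKM with metformin, against 6.22 ± 0.184 FPKM with PBS (limma adjusted p = 0.00135). The inhibitor gene NFKBIE averaged 8.79 ± 1.80 FPKM with metformin and 8.69 ± 0.378 FPKM with PBS (limma adjusted p = 0.999). NFKBID, a nuclear IkappaB gene, averaged 1.23 ± 0.436 FPKM with metformin and 1.75 ± 0.465 FPKM with PBS (limma adjusted p = 0.211). COMMD1, whose product promotes the removal of RELA, averaged 3.71 ± 0.499 FPKM with metformin and 3.38 ± 0.266 FPKM with PBS (limma adjusted p = 0.434). These 3 genes did not pass. NKRF shares exon bases with UBE2A and COMMD1 with CCT4 on the other strand.

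Among 32 genes of kinases and adaptors that carry the signal, 12 rose and 5 fell, 53.1% called beside 56.2% of all tested genes (median log2 change 0.06). The kinase gene with the largest fall was IKBKE, an IkappaB kinase relative that also acts in interferon induction, with 5.29, 5.17 and 6.53 FPKM with metformin, against 21.9, 21.4 and 18.8 FPKM with PBS. The groups lay far apart, and log2 values differed by -1.71 ± 0.10 (SE, limma adjusted p = 2.7e-05). BIRC2, which encodes cIAP1, the close relative of cIAP2, rose 1.69-fold to 12.7 ± 1.65 FPKM with metformin, against 7.51 ± 0.623 FPKM with PBS (limma adjusted p = 0.00148). IRAK1, a kinase of interleukin 1 and Toll-like receptor signalling, rose 1.63-fold to 49.6 ± 8.88 FPKM with metformin, against 30.5 ± 0.970 FPKM with PBS. TAB3, a subunit of the TAK1 kinase complex, rose 2.30-fold, but it overlaps the antisense gene TAB3-AS2, which averaged 31.6 FPKM with metformin and 15.2 FPKM with PBS, and the strand setting of the counting is not given in the sources used here. MAP3K3 and CARD10, an upstream kinase and a scaffold of the pathway, fell 1.64-fold and 1.43-fold.

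Ubiquitin chains are the scaffolds of this pathway, and of 21 genes that build, edit or read them or otherwise restrain the signal, 10 rose and 5 fell, 71.4% called beside 56.2% of all tested genes (median log2 change 0.34). RBCK1, which encodes HOIL-1, a subunit of the linear ubiquitin ligase, had 56.9, 57.1 and 58.2 FPKM with metformin, against 15.2, 16.0 and 12.9 FPKM with PBS. It was 3.90-fold higher with metformin, and log2 values differed by 1.90 ± 0.08 (SE, limma adjusted p = 7.7e-06). RNF31, its catalytic subunit, fell to 4.77 ± 0.203 FPKM with metformin, against 6.53 ± 0.399 FPKM with PBS (limma adjusted p = 0.00377). SHARPIN averaged 7.15 ± 0.435 FPKM with metformin and 5.71 ± 0.827 FPKM with PBS and did not pass (limma adjusted p = 0.0559). RNF31 and SHARPIN were named after their values were seen. OTUD7B, a deubiquitinase known to act on TRAF3, rose to 5.46 ± 0.253 FPKM with metformin, against 2.32 ± 0.0832 FPKM with PBS. TAX1BP1, an adaptor of A20, rose to 28.97 ± 0.510 FPKM with metformin, against 17.6 ± 0.665 FPKM with PBS. ZC3H12A, which encodes the RNase regnase-1 that degrades cytokine transcripts, had 23.3, 24.03 and 25.2 FPKM with metformin, against 69.4, 74.1 and 66.3 FPKM with PBS (log2 change -1.49, SE 0.06, limma adjusted p = 6.31e-06). TNFAIP3 did not pass the test, while TNIP1 and TNIP3, which encode A20-binding proteins, fell 1.58-fold and 4.47-fold. TNIP3 was low, with 0.608 ± 0.147 FPKM with metformin and 2.72 ± 0.395 FPKM with PBS. TNIP1 averaged 40.4 ± 1.13 FPKM with metformin and 63.85 ± 1.55 FPKM with PBS. TNIP2, the third gene of that family on the list, rose to 8.62 ± 0.523 FPKM with metformin, against 6.57 ± 0.438 FPKM with PBS (limma adjusted p = 0.00745), and was named after its values were seen.

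Of 31 receptor and ligand genes, 21 were tested, of which 5 rose and 8 fell, 61.9% called beside 56.2% of all tested genes (median log2 change -0.13). The count of falls was 5 without the second PBS library. IL1B, which encodes the cytokine interleukin 1 beta, had 44.7, 45.6 and 46.1 FPKM with metformin, against 102, 110 and 108 FPKM with PBS (log2 change -1.21, SE 0.05, limma adjusted p = 5.08e-06). TNF, the tumour necrosis factor gene, had 9.59, 10.7 and 11.2 FPKM with metformin, against 21.8, 24.3 and 23.7 FPKM with PBS (log2 change -1.08, SE 0.08, limma adjusted p = 5.31e-05), and was named after its values were seen. In both cytokine genes the groups were clearly apart. TNFSF10, which encodes the death ligand TRAIL, fell 2.63-fold, and IL17C, an epithelial cytokine, fell to 0.241 ± 0.0947 FPKM with metformin, against 2.18 ± 1.10 FPKM with PBS. TNFSF14, which encodes LIGHT, a ligand of the lymphotoxin beta receptor, rose 4.73-fold to 7.21 ± 0.149 FPKM with metformin, against 1.52 ± 0.645 FPKM with PBS. TLR4, a Toll-like receptor, rose to 5.12 ± 0.143 FPKM with metformin, against 1.93 ± 0.1004 FPKM with PBS. TNFRSF12A, the receptor of TWEAK, rose to 154 ± 22.3 FPKM with metformin, against 83.2 ± 2.53 FPKM with PBS.

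Of 46 known target genes of NF-kappaB on the list, 40 were tested, and 15 rose, 17 fell and 8 did not pass, 80.0% called beside 56.2% of tested genes, with a median log2 change of -0.02. A fall of at least 1 on the log2 scale was seen in 14 of the 40 (35%, beside 4.89% of all tested genes), and a rise as large in 5 (12.5%, beside 6.66%). The list was written with some of these genes' results known, so these shares are a description. On the log2(FPKM + 1) scale the largest falls were in CCL2, CXCL1 and CFB, which encode a pair of chemokines and complement factor B. On ratios of mean FPKM, the chemokine gene CXCL10 was 10.27-fold lower with metformin, beside 6.66-fold for CXCL1 and 7.25-fold for CFB. The cytokine gene CSF3 averaged 0.0189 FPKM with metformin and 2.06 FPKM with PBS. EBI3, a cytokine subunit gene, averaged 0.274 FPKM with metformin and 2.16 FPKM with PBS. Both ratios were larger than those of CXCL1 and CFB, and both genes were listed at 0 in some metformin libraries. CXCL10, CSF3 and EBI3 were named after their values were seen. CCL2 had 54.0, 55.0 and 53.4 FPKM with metformin, against 614, 708 and 597 FPKM with PBS. CFB had 5.91, 6.63 and 6.28 FPKM with metformin, against 48.3, 46.0 and 42.2 FPKM with PBS (log2 change -2.67, SE 0.07, limma adjusted p = 2.02e-06). The ranges of the groups were far apart in both genes. IL6, LCN2 and PTX3, which encode a cytokine, an iron-siderophore-binding protein and a pentraxin, had the largest rises on both scales. LCN2 had 357, 394 and 454 FPKM with metformin, against 63.3, 81.3 and 74.8 FPKM with PBS (log2 change 2.44, SE 0.12, limma adjusted p = 1.16e-05). PTX3 had 42.8, 49.8 and 43.0 FPKM with metformin, against 9.43, 10.7 and 10.5 FPKM with PBS (log2 change 2.04, SE 0.08, limma adjusted p = 6.38e-06). IL6 rose 9.79-fold, and it overlaps the antisense gene AC073072.1, which averaged 5.39 FPKM with metformin and 0.585 FPKM with PBS. CFB shares exon bases with C2 and PTX3 with VEPH1, which averaged 1.77 and 1.70 FPKM with metformin and 1.17 and 0.696 FPKM with PBS.

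**Figure D5:**
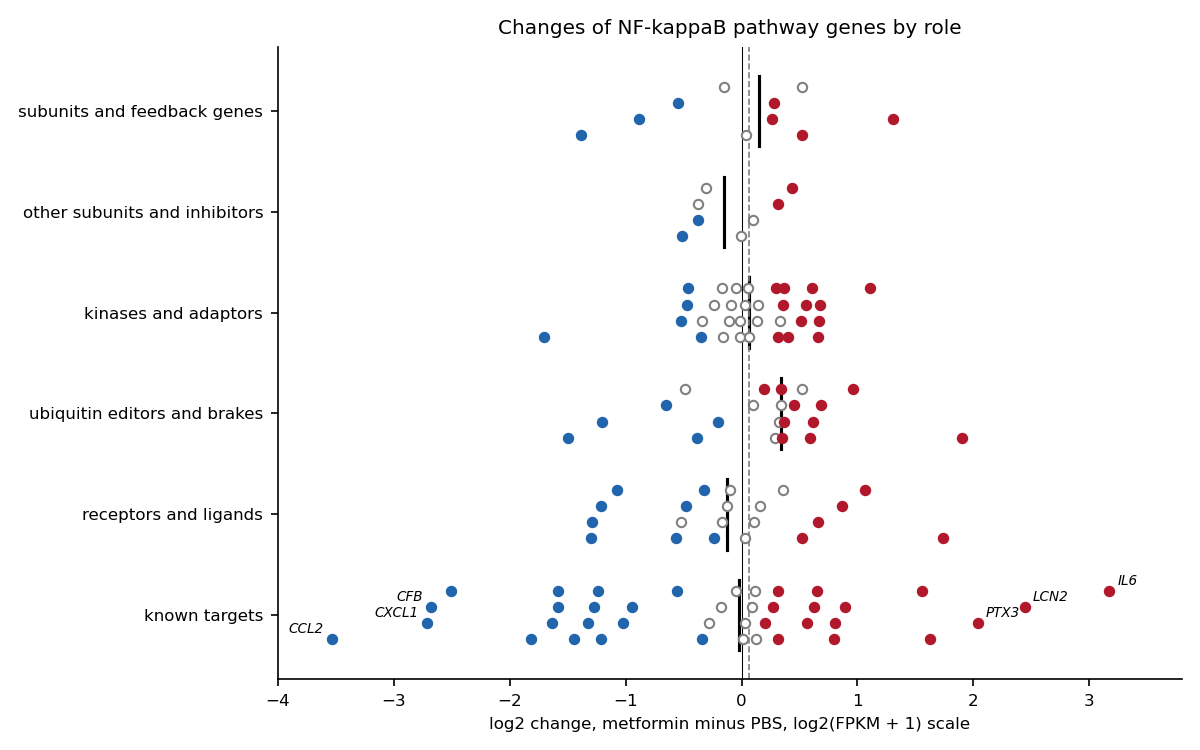
Log2 change, metformin minus PBS, of every tested gene of the 10 described genes and of 5 lists of other pathway genes. Red and blue points passed the test as higher and lower, open points did not, black bars are list medians and the dashed line is the median of all tested genes, 0.06. The known targets spread the widest, with CCL2 at -3.53 and IL6 at 3.17.

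By the pattern over the 6 libraries, the protein-coding genes most like TNFAIP2, the gene with the largest absolute change of the 10 on the log2(FPKM + 1) scale, were ACLY, ALDH3A1, CA9, LSS and CARHSP1, with Pearson r of log2 values between 0.9987 and 0.9992. On ratios of mean FPKM the change of TRAF1, 3.58-fold, was larger than that of TNFAIP2, 2.68-fold. Libraries of both groups enter each r, so the difference between the groups can make up most of it. The log2 changes of the 5 like genes ran from -0.62 (ALDH3A1) to -3.84 (CA9), so a high r does not mean a change of similar size. CA9 averaged 0.02345 FPKM with metformin and 13.8 FPKM with PBS. Of 8 leukocyte, 7 fibroblast and 5 endothelial markers, CD14, CDH5, CD68 and COL1A1 passed the filter and were tested, and CD14 and CDH5 passed as lower, CD68 and COL1A1 as higher. CD14, a monocyte marker, averaged 0.943 ± 0.135 FPKM with metformin and 3.71 ± 1.09 FPKM with PBS, and CDH5, an endothelial cadherin, averaged 2.03 ± 0.0758 FPKM with metformin and 6.17 ± 0.516 FPKM with PBS. CD68, a macrophage marker, averaged 3.33 FPKM with metformin and 2.15 FPKM with PBS (limma adjusted p = 0.00612), and COL1A1, a collagen gene of fibroblasts, 2.38 FPKM with metformin and 1.36 FPKM with PBS (limma adjusted p = 0.00563). CD68 shares exon bases with AC016876.2 on its own strand and AC016876.1 on the other, so its values are uncertain. Those genes averaged 4.116 and 4.369 FPKM with metformin and 4.035 and 2.584 FPKM with PBS. CSF1R, a receptor of macrophages below the filter, had 1.03, 0.810 and 0.910 FPKM with metformin, against 0.226, 0.240 and 0.207 FPKM with PBS. CD79A and KDR were listed at 0 in every library, PTPRC reached at most 0.212 FPKM and PECAM1 at most 0.158 FPKM. These markers were named after their values were seen, and their part in the results, like that of the lower squamous marker sum, was not tested.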

How the data were processed

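FPKM values per gene were deposited by the authors, 1 file per library, for 3 metformin and 3 PBS libraries of CAL27 cells. The build was GRCh38, per the submitters' processing notes, and libraries were made from total RNA with an mRNA kit, per the labels' protocols. Aligner, quantification tool, annotation and strand setting are each not given in the sources used here. Names came from GENCODE release 29, which named 57980 of 58243 identifiers. Estimated depth was 7800000 to 8840000 fragments per library, from the steps between low values. The low values were not whole multiples often enough to recover read counts, so no count test was run.

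Genes that averaged 1 FPKM or more were tested with limma 3.58.1 (R 4.3.3, intensity trend) on log2(FPKM + 1), group as the only term, with Benjamini-Hochberg adjustment over 13437 genes and a threshold of 0.05. Fold changes on this scale understate the change of low genes; folds in the text are ratios of mean FPKM. Ratios within libraries were compared with exact permutation tests in SciPy 1.17.1. The labels do not say whether replicate numbers pair libraries. Correlations of deviations between same-numbered libraries were 0, 0.03 and -0.01, which cannot show whether they shared a culture or day.

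The members and lists were chosen with earlier results of these data known. From each pathway list, up to 3 called genes per direction with the largest changes on the log2(FPKM + 1) scale, groups that did not overlap and at least 2 FPKM in the higher group were named, together with all tested genes of the list of other subunits and inhibitors. For likeness, the 5 protein-coding genes with the highest r and at least 5 FPKM were taken. Alternatives covered the pseudocount, the filter, library scaling, the limma prior, protein-coding genes alone, a replicate block and leaving out each library.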

Additional observations from a re-analysis of the deposited data

How the results depend on the processing

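Over all alternatives run, 3 to 4 of the 10 genes rose and 3 fell, and NFKB1, NFKB2, RELB, NFKBIA, TNFAIP2 and TRAF1 kept direction and call under each alternative that tested them. TRAF1 was not tested with a filter of at least 5 FPKM. NFKBIZ lost its call with median-of-ratios scaling (0.21), and its log2 change ranged between 0.21 and 0.32 with libraries left out. TNFAIP3, which never passed, had -0.0188 with median-of-ratios scaling and -0.0141 to 0.12 with libraries left out. NFKBIE, which also never passed, had 0.0252 after rescaling to TPM and -0.15 to 0.10 with libraries left out. The log2 difference of RELB over RELA ranged from -0.16 to 0.22 and that of NFKB2 over RELA from -0.37 to 0.0139 with libraries left out, and that of TNFAIP3 over RELA from -0.67 to -0.15. BIRC3 over TRAF1 was -1.93 and -2.00 with pseudocounts of 0.1 and 0.01, beside -1.46 with a pseudocount of 1. A filter of at least 5 FPKM left 7388 tested genes in place of 13437, and 2401 of them rose and 2337 fell. With it 3 kinase and adaptor genes fell, and 2 receptor and ligand genes rose and 5 fell. The called genes of these lists that no longer counted lay below that filter and were not tested there. Quantile scaling gave 8 kinase and adaptor genes that fell. Over all 13437 tested genes it gave 3645 higher and 3811 lower, beside 4169 higher and 3380 lower in the main fit. The other subunit and inhibitor genes that rose numbered 1 with no filter, with median-of-ratios scaling and with quantile scaling, and 1 to 2 with libraries left out. Receptor and ligand genes that fell numbered 5 to 8 with libraries left out. For the differences other than those under that filter, the cause was not tested. The replicate block left 4 of the 10 genes higher and 3 lower, with 3940 higher and 3199 lower over all genes. The pairing it assumes is not stated in the labels. Not every library correlated best with its own number, which cannot settle whether libraries were paired. By the rough depth estimate 1 FPKM is about 7.8 to 8.84 fragments per kilobase, which would limit low genes such as TRAF1.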
